A study of Homo sapiens with 8 samples.

Results

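The baseline transcriptome of HepG2, an established human hepatocellular carcinoma cell line, was described from the 2 vehicle-treated control libraries among the 8 libraries of the series. Members were chosen by the sample label Control alone, and no contrast with another group was made. The cells had grown in DMEM without phenol red and with charcoal-stripped serum, which holds little steroid hormone. They were starved for 16 h in 0.1% FBS and then received the solvent DMSO for 48 h. The serum content of the medium during these 48 h is not given in the sources used here. The other 6 libraries came from cells given E2, PPT or DPN at 1 µM, with 2 libraries for each compound, and serve below only as background for depth, replicate spread, shared counts and absent transcripts. Nothing in the sources says that the replicates were separate cultures, so the spread between control libraries may be technical. A single tumour line stands for no donor's liver, and in bulk RNA fewer cells of a kind and less RNA per cell cannot be told apart.

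Liver parenchymal cells secrete most proteins of the blood plasma, make bile acids, dispose of ammonia and drugs, and release glucose between meals. Fetal liver cells make alpha-fetoprotein (AFP) as well as albumin (ALB), while adult cells make ALB with little AFP. Fetal cells also use other isozymes for sugar and drug metabolism. Liver tumours often express fetal genes again. HepG2 carries an activating change in beta-catenin and is widely used for work on lipoproteins, iron and hepatitis viruses.

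The control libraries held 29670814 and 28163450 counts, within the 25103160 to 29670814 of all 8. Levels are counts per 1000000 counts of the library (CPM). Levels of different genes were compared as counts per kb of annotated exon scaled to a library sum of 1000000 (TPM), and CPM is the level of a single gene. A gene was called detected at 1 CPM or more in both control libraries, which held for 12850 of 26235 genes, or 49%. Among protein-coding genes 11646 of 19028, or 61.2%, were detected. The numbers of detected list members below are to be read against this share. A gene with no count in either library was below a floor of 3 counts over both, which is 0.0519 CPM, and this floor covers counting error only.

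The promoters of AFP, ALB and of the fetal and adult drug oxidases CYP3A7 and CYP3A4 are shown, because these genes form the fetal and adult pairs on which much of the description turns. Each run goes 5' to 3' from 250 bases before to 50 bases after the gene start in RefSeq on GRCh38.p14, at chr4:73435971-73436270 (plus strand) for AFP, chr4:73404037-73404336 (plus strand) for ALB, chr7:99735147-99735446 (minus strand) for CYP3A7 and chr7:99784135-99784434 (minus strand) for CYP3A4. Capitals mark exact matches to TATAAA, the TATA box, and to GTTAAT or its complement ATTAAC, the letters of a half-site of the hepatocyte factor HNF1.
AFP: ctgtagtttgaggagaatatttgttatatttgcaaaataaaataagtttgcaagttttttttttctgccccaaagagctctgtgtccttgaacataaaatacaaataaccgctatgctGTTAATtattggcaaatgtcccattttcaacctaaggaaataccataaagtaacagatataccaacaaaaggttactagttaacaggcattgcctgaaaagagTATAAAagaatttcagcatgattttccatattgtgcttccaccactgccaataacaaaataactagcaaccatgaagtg
ALB: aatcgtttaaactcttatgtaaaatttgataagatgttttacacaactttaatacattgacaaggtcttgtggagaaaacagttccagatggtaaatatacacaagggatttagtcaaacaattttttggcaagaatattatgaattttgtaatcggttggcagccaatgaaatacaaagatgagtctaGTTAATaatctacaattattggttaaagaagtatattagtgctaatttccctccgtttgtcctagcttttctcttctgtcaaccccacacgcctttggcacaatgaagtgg
CYP3A7: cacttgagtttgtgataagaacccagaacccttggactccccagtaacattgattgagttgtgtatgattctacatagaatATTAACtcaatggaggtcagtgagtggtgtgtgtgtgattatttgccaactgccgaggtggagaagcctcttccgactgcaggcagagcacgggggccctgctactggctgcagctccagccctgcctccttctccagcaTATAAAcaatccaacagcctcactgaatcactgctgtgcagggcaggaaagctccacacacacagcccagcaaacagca
CYP3A4: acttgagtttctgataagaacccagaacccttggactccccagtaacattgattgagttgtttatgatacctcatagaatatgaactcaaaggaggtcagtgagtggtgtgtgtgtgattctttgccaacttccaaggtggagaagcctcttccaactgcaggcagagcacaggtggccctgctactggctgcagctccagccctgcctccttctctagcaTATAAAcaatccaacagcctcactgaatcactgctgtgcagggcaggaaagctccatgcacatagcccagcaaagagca
AFP had GTTAAT starting 132 bases before the gene start and TATAAA 29 bases before it, while ALB had GTTAAT 61 bases before its start and no TATAAA. CYP3A7 and CYP3A4 shared TATAAA at 29 bases, and CYP3A7 alone of this pair had ATTAAC, at 169 bases. The CYP3A promoters were near copies, with 93.7% identical positions in an end-to-end alignment, against 52.6% for AFP and ALB. APOB, TTR, GPC3 and APOA1 were not shown.

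On either strand, GTTAAT stood in 20 of 58 promoters (34.5%) of detected plasma protein genes that had an entry. It stood in 8.27% of all 27305 promoters of this length, in 0 of 17 promoters of proliferation genes and in 0 of 63 of ribosomal proteins. CCAAT, the box bound by NF-Y, stood in 14 of 17 promoters of proliferation genes (82.4%), in 51.7% of those of detected plasma protein genes and in 39.7% of all. TATAAA stood in 9 of 13 promoters of drug-oxidising cytochromes P450 (69.2%), in 12.1% of those of detected plasma protein genes and in 14.0% of all. Among promoters of detected protein-coding genes the shares were 5.85% for GTTAAT, 43.6% for CCAAT and 8.24% for TATAAA. These matches describe letters in a fixed window and say nothing of binding.

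The labelled cell type was checked first against ALB, AFP, APOB and TTR, and all were detected in both libraries. ALB, the main carrier of the plasma (GeneID 213, chr4:73397114-73421482 on GRCh38), had 11183 and 10597 CPM. AFP, its fetal relative (GeneID 174, chr4:73431138-73456174), had 16789 and 16097 CPM. APOB, the scaffold protein of low-density lipoprotein (GeneID 338, chr2:21001429-21044073), had 12316 and 11960.5 CPM. TTR, which carries thyroxine and retinol-binding protein (GeneID 7276, chr18:31557009-31598833), had 239 and 265 CPM. The mean levels were 10890 ± 414 CPM for ALB, 16443 ± 490 CPM for AFP, 12138 ± 251 CPM for APOB and 252 ± 18.8 CPM for TTR (SD, n = 2). Per length the order was AFP at 20725 ± 793 TPM, ALB at 12806 ± 596 TPM, APOB at 3303 ± 96.5 TPM and TTR at 467 ± 30.9 TPM. The libraries of neighbours did not overlap. The order was the same on other lengths, but the distances were not. On the longest transcript APOB had 2517 TPM and TTR 772 TPM. On the MANE Select transcript, a single reference transcript per gene, they had 2209 and 1051 TPM.

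The control libraries lay close together across the range of levels. Among 9222 genes with a mean of at least 10 CPM, the median fold between them was 1.05, and 6 genes (0.0651%) differed by more than 1.5-fold. Their counts still differed by more than counting error, with a chi-square of 4.21 per degree of freedom over 18496 genes, against 4.59 to 9.36 in the other replicate pairs, so they were taken as separate libraries. The gene farthest apart was GeneID 102464835, which has no RefSeq entry and had 178 and 1555 counts. GUSBP3, a pseudogene, had 13.4 and 7.10 CPM, and POLR2L, a small subunit of RNA polymerases, had 23.4 and 39.9 CPM. HAUS5, RPS14P3, FOSL2, SLC66A1 and UPRT differed by 1.49-fold to 1.58-fold.

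**Figure D1:**
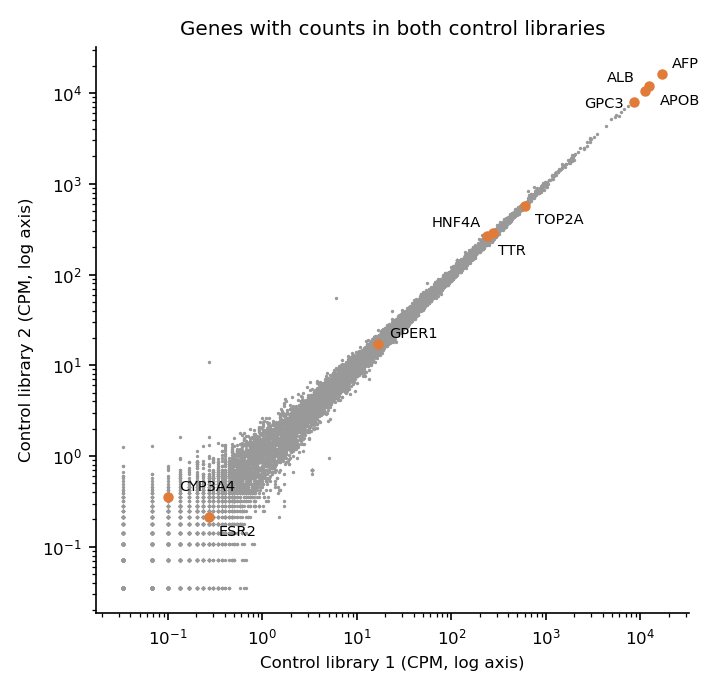
Each grey point is a gene with counts in both control libraries, in CPM on log axes, and orange points are named genes. Points narrow to a thin diagonal above about 10 CPM, where the median fold between libraries was 1.05, and ESR2 and CYP3A4 lie below 1 CPM.

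RNA was spread unevenly over genes. The 10 genes with the most counts held 10.1 ± 0.172% of all counts (SD, n = 2), the top 100 held 26.3%, and 690 genes held 50% of them. CPM reached 100 in both libraries for 1999 genes (7.62%) and 1000 for 82 genes. The median was 0.981 CPM over all genes and 26.2 CPM over detected genes. Protein-coding genes took 96.9% and 96.8% of counts, and long noncoding RNAs 1.28% and 1.31%, with 675 of 3719 such RNAs detected. The highest entries of this RNA class were SENP3-EIF4A1, at 1406 and 1424 CPM, and BLOC1S5-TXNDC5, at 720 and 731 CPM. Both are named after neighbouring coding genes, and whether their reads came from those genes was not tested.

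Per kb of all annotated exons the highest gene was FTL, the ferritin light chain that stores iron, at 25670 and 26509 TPM. AFP and ALB came next, followed by GPC3, a cell-surface proteoglycan of fetal liver and liver tumours, at 10606 and 9820 TPM. The lowest library of each of these genes stood above the highest of the next. RPL41, a ribosomal protein, had 8498 and 8892 TPM. APOA2 and APOA1, the proteins of high-density lipoprotein, had 8058 ± 196 and 7580 ± 214 TPM. GAPDH, a glycolytic enzyme, and ACTG1, a cytoplasmic actin, had 7257 ± 35.8 and 7251 ± 225 TPM and overlapped. EEF1A1, which brings tRNA to the ribosome, had 6657 ± 5.20 TPM.

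Plasma proteins made up much of the rest of this group of 25 genes. FGG and FGA, chains of fibrinogen, had 6409 ± 279 and 5138 ± 170 TPM. SERPINA1, alpha-1-antitrypsin, had 5514 ± 2.01 TPM, and AHSG, fetuin-A, had 5477 ± 176 TPM. A2M, a broad protease inhibitor, had 5069 ± 240 TPM, APOH had 4959 ± 33.0 TPM and ITIH2, an inhibitor that joins hyaluronan, had 4226 ± 12.2 TPM. DHRS2, a short-chain dehydrogenase, had 4609 ± 24.9 TPM, and RPL10A had 4233 ± 97.1 TPM. The order depended on the length used. On the longest transcript AFP had 19845 TPM and FTL 18934 TPM, and on the MANE Select transcript, a single reference transcript per gene, AFP had 17422 TPM and FTL 16622 TPM, so that AFP was first on both. On MANE Select lengths DHRS2 had 13188 TPM, ALB 12250.5 TPM and EEF1A1 12152 TPM, and 18 of the 25 genes were still among the 25 highest. HNRNPA1P10, H3P6 and the MIR1244 loci, also among the 25, had no MANE Select length and could not stay, whatever their level.

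Some entries cannot be told from their near copies. HNRNPA1P10 and H3P6 are pseudogenes, and the 4 MIR1244 loci had 3397 and 4066 counts each, the same numbers at all 4. In all, 125 genes in 52 groups had identical counts in all 8 libraries, and they held 0.885% of the control counts. C4A and C4B, SAA1 and SAA2, and the alpha globins HBA1 and HBA2 are near copies too. Use of the strand in counting is not given in the sources used here, so reads of overlapping genes cannot be told apart.

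**Figure D2:**
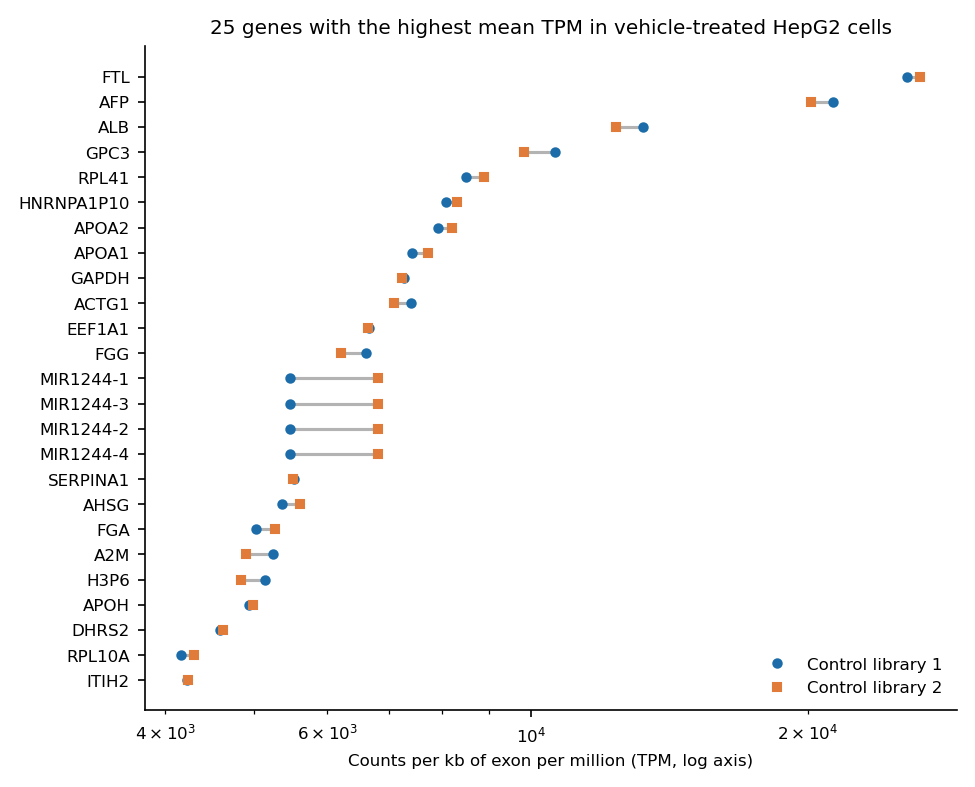
The 25 genes with the highest mean TPM are listed down the page, with the TPM of both control libraries on a log axis and a line joining them. FTL lies at 25670 and 26509 TPM, and the first 4 genes do not overlap, while the 4 MIR1244 loci coincide.

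Of 98 genes in 6 lists of plasma proteins, 78 were detected (79.6%, against 61.2% of protein-coding genes), and together they held 8.21 ± 0.0103% of all counts. Their median was 48.8 CPM, against 0.981 CPM over all genes. The lists were drawn up with earlier results of these data known, so their counts are descriptions.

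Carriers were detected for 14 of 17 genes. TF, the iron carrier transferrin, had 5423 and 5457 CPM, and AMBP, the precursor of alpha-1-microglobulin, had 800 and 828 CPM. RBP4, the retinol carrier, had 480.2 and 495 CPM, and SERPINA6, the cortisol carrier, had 215 and 213 CPM. HP, haptoglobin, which binds free haemoglobin, had 156 and 167 CPM. SHBG, the carrier of sex steroids, had 9.50 and 10.0 CPM. AFM and GC, adult relatives of ALB, were nearly missing, with AFM at 0.101 and 0 CPM and GC, the vitamin D carrier, at 0.0674 and 0 CPM.

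Apolipoproteins were detected for 12 of 14 genes. APOE, a ligand of lipoprotein receptors, had 645 and 840 CPM. APOM had 151 and 169 CPM, APOC3, an inhibitor of triglyceride clearance, 80.8 and 85.0 CPM, and APOC2, the cofactor of lipoprotein lipase, 61.5 and 68.8 CPM. APOA5 and APOA4 had 7.27 ± 1.12 and 6.06 ± 0.339 CPM. LPA, the protein of lipoprotein(a), had 0.202 and 0.0355 CPM, and APOC4 had 0.0337 and 0 CPM.

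Protease inhibitors were detected for all 15 genes of their list, with a median of 262 CPM. SERPINA3, antichymotrypsin, had 930 and 1011 CPM, and SERPINC1, antithrombin, had 257 and 266 CPM. SERPIND1, heparin cofactor II, had 353 and 372 CPM. At the low end, SERPING1, which restrains complement C1, had 2.56 and 2.95 CPM, and ITIH4 had 1.35 and 1.07 CPM.

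Acute-phase proteins, which the liver secretes in inflammation, were detected for 7 of 13 genes (53.8%, against 61.2% of protein-coding genes). ORM1 and ORM2, the orosomucoids, had 121 ± 6.23 and 111 ± 2.14 CPM, and CP, ceruloplasmin, had 103 and 91.6 CPM. CRP and SAA1 had 0 counts in both control libraries, SAA2 had 0 and 0.0710 CPM, and LBP had 0 and 0.178 CPM. CRP also had 0 counts in the other 6 libraries. FGL1, a fibrinogen-like protein, had 37.3 and 36.3 CPM, and SAA4, a serum amyloid that is made constitutively, had 6.30 and 6.43 CPM.

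Coagulation and fibrinolysis genes were detected for 16 of 21 (76.2%, against 61.2% of protein-coding genes). FGG had 5860 and 5577 CPM and FGA had 4843 and 5136 CPM, whereas FGB, the third fibrinogen chain, had 327 and 343 CPM. Per length FGB had 309 TPM, below FGG and FGA in both libraries. F2, prothrombin, had 421 and 424 CPM, PROS1, protein S, 264 and 259 CPM, F5 209 and 200.0 CPM and F10 90.8 and 100.1 CPM. F9, the factor missing in haemophilia B, had 0 counts in both control libraries, and F8 had 0.506 and 0.781 CPM.

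Complement genes were detected for 19 of 23. C3, the hub of all complement pathways, had 2992 and 3111 CPM. C4B and C4A had 1886 ± 28.3 and 947 ± 13.1 CPM as counted. CFB and C2, proteases of the C3 convertases, had 263 ± 4.66 and 269 ± 4.24 CPM. C9, the pore-forming unit, had 0 counts in both control libraries.

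Fetal liver and hepatoma genes held 2.90 ± 0.0929% of all counts, with 19 of 26 detected (73.1%, against 61.2% of protein-coding genes). PEG10, an imprinted gene derived from a retroelement, had 1796 and 1756 CPM, and PEG3, also imprinted, had 436 and 424 CPM. IGF2, the fetal growth factor, had 530 and 537 CPM. The fetal RNA-binding proteins IGF2BP1 and IGF2BP2 had 425 ± 1.20 and 190 ± 8.22 CPM, and HMGA2, a chromatin protein of embryonic cells, had 348 and 321 CPM. H19, an imprinted noncoding RNA next to IGF2, had 0 and 2 counts, and the fetal globins HBG1 and HBG2 had 0 counts.

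Tumour genes were detected for 24 of 26. CTNNB1, which encodes beta-catenin, had 992 and 1007 CPM. NQO1 and its activator NFE2L2 had 468 ± 7.60 and 296 ± 10.6 CPM, and MDM2, which targets p53, had 266 and 277 CPM. MYC had 190 and 197 CPM, YAP1 had 204 and 188 CPM and CCND1 had 119 and 123 CPM. TERT, the catalytic unit of telomerase, had 0.843 and 0.923 CPM, and MYCN had 0 counts. Targets of Wnt signalling, through which beta-catenin acts, were detected for 13 of 15. The feedback inhibitors NKD1 and NOTUM had 236 ± 0.696 and 232 ± 0.250 CPM, LGR5 had 193 and 190 CPM and AXIN2 had 107 and 114 CPM. GLUL, glutamine synthetase of cells around the central vein, had 492 and 472 CPM. CYP2E1, also of central-vein cells, had 0.0674 and 0 CPM, and LEF1 had 0.337 and 0.107 CPM.

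**Figure D3:**
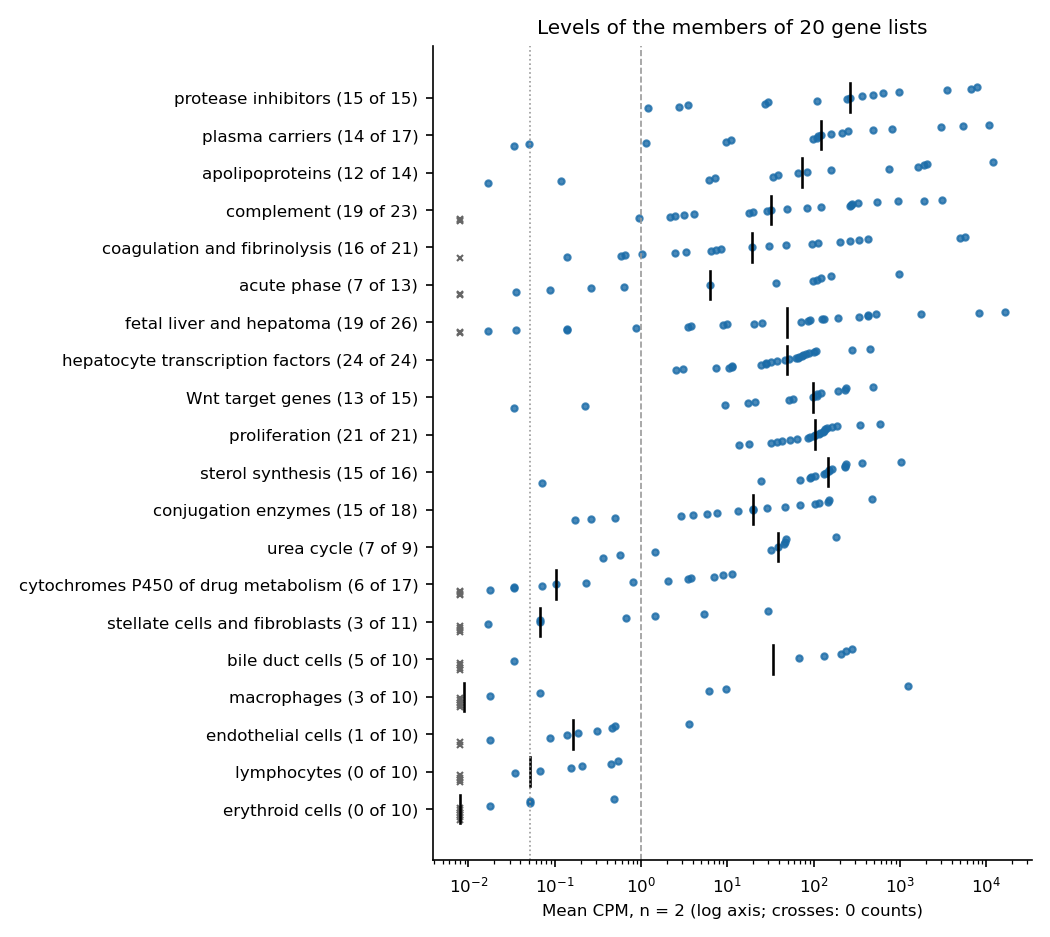
Each point is a gene at its mean CPM over both control libraries on a log axis, for 20 lists with the number detected and measured, and black bars are medians. The dashed line is 1 CPM, the dotted line the floor of 0.0519 CPM, and crosses mark 0 counts. Protease inhibitors lie wholly above 1 CPM, and lymphocyte and erythroid genes wholly below it.

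All 24 hepatocyte transcription factors were detected. HNF4A, a central regulator of liver genes, had 277 and 285 CPM, and XBP1, which expands the secretory pathway, had 458 and 443 CPM. CEBPB and CEBPA, which drive acute-phase and metabolic genes, had 101 ± 1.15 and 88.0 ± 1.21 CPM. FOXA2, a pioneer factor, had 75.7 and 70.7 CPM, HHEX had 113 and 98.1 CPM, GATA4 had 74.1 and 77.9 CPM and PROX1 had 82.8 and 80.3 CPM. ONECUT1, a factor of the early liver bud, had 2.16 and 2.98 CPM. Per length XBP1 was highest of these factors, at 614 and 586 TPM, and ZBTB20 lowest, at 0.847 and 0.837 TPM.

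Estrogen acts through the nuclear receptors ESR1 (ERα) and ESR2 (ERβ) and the membrane receptor GPER1. ESR1 (GeneID 2099, chr6:151656691-152129619) had 0 counts in both control libraries and in the other 6. The floor of 3 counts is 0.0136 CPM over the 8 libraries. ESR2 (GeneID 2100, chr14:64084232-64338112) had 8 and 6 counts, or 0.270 and 0.213 CPM, with an exact Poisson 95% interval of 0.132 to 0.406 CPM for both libraries pooled. GPER1 (GeneID 2852, chr7:1082208-1093815) had 500 and 478 counts, or 16.9 and 17.0 CPM, with an interval of 15.9 to 18.0 CPM. GPER1 was the 1 of these 3 genes detected at 1 CPM, and per length it had 21.8 ± 0.0756 TPM against 0.0816 ± 0.0142 TPM for ESR2.

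Of 48 nuclear receptor genes, 32 were detected (66.7%, close to the 61.2% of protein-coding genes). Per kb of all annotated exons NR0B2 (SHP), which represses bile acid synthesis, was highest at 227 and 228 TPM, and HNF4A followed at 111 and 112 TPM. This order depended on the length used. HNF4A had 174 TPM and NR0B2 165 TPM on the longest transcript, and 156 and 145 TPM on the MANE Select transcript. NR1H4, the bile acid receptor FXR, had 67.9 and 66.3 CPM, and its target NR0B2 had 65.3 and 66.1 CPM. NR6A1, an orphan receptor of germ and stem cells, had 84.5 and 79.2 CPM, and NR1D2, a repressor of the clock, had 82.6 and 78.5 CPM. PPARA, the fatty acid sensor of fasting, had 60.8 and 70.8 CPM, and the shared partners RXRA and RXRB had 60.5 ± 2.67 and 57.5 ± 0.594 CPM. No count of PGR, the progesterone receptor, nor of NR0B1, NR2E3 or RORB was found in either control library.

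**Figure D4:**
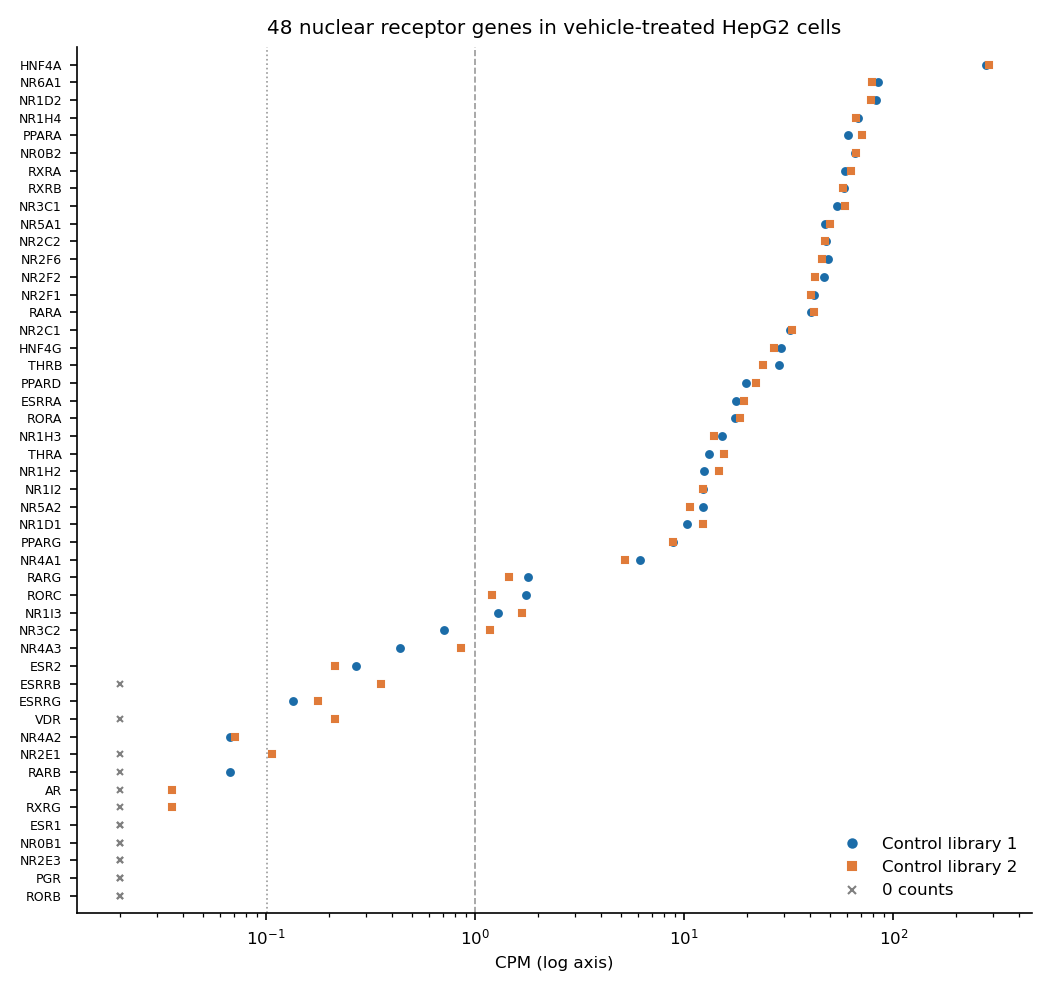
The 48 nuclear receptor genes are ordered by mean CPM, with both control libraries on a log axis, the dashed line at 1 CPM and the dotted line at the floor of 0.101 CPM for control library 1. CPM is not corrected for length, so the order is not one of transcript number. HNF4A has 277 and 285 CPM, and ESR1 is among the 5 genes with 0 counts in both libraries.

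Among 39 growth factor and cytokine receptors, 32 were detected. TGFBR2, the type II receptor of TGF-beta, had 746 and 739 CPM, and TNFRSF10B, a death receptor of TRAIL, had 660 and 651 CPM. IGF2R, which clears IGF2, had 740 and 723 CPM. ERBB3 had 416 and 424 CPM, FGFR3 418 and 411 CPM, and FGFR4, the hepatic receptor of FGF19, 256 and 277 CPM. GCGR, the glucagon receptor, had 0.0337 and 0 CPM, and ERBB4 had 0.0674 and 0 CPM.

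Uptake and virus entry receptors were detected for 12 of 15 genes (80%, against 61.2% of protein-coding genes). TFRC, the transferrin receptor, had 458 and 457 CPM, and LRP1, which clears remnants, had 359 and 399 CPM. ASGR1 and ASGR2, the asialoglycoprotein receptor of hepatocytes, had 326 ± 30.2 and 322 ± 2.59 CPM. SCARB1, the HDL receptor, had 169 and 182 CPM. CLDN1 and OCLN, junction proteins that hepatitis C virus uses, had 133 ± 1.22 and 88.7 ± 3.41 CPM. CD81, a further entry factor of that virus, had 0 and 1 count, and SLC10A1 (NTCP), the entry receptor of hepatitis B virus and bile salt importer, had 0.303 and 0.0355 CPM.

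Drug-metabolising cytochromes P450 were the sparsest hepatocyte list. Detection held for 6 of 17 genes (35.3%, against 61.2% of protein-coding genes), and the median was 0.104 CPM. CYP4F3 and CYP4F2, fatty acid hydroxylases, had 11.3 ± 0.146 and 8.92 ± 0.111 CPM, and CYP2J2 had 7.25 and 6.71 CPM. Per length CYP4F2 was highest, at 11.8 and 11.4 TPM. CYP1A1, which is induced through the dioxin receptor, had 3.94 and 3.55 CPM. CYP3A7 had 3.61 and 3.34 CPM and CYP3A4, the main drug oxidase of adult liver, 0.101 and 0.355 CPM. CYP2C19, CYP2A6 and CYP4A11 had 0 counts.

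Conjugation enzymes, which act after the P450s, were detected for 15 of 18 genes. UGT2B10 had 475 and 469 CPM, SULT2A1, which sulfates steroids, 151 and 144 CPM, and UGT2B7 108 and 98.1 CPM. SULT1E1, the estrogen sulfotransferase, had 2.86 and 2.95 CPM. UGT2B17 and UGT2B15, which conjugate androgens, had 0.236 and 0.284 CPM and 0.169 and 0.178 CPM.

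Bile acid synthesis and transport genes were detected for 13 of 19 (68.4%, close to the 61.2% of protein-coding genes). ABCC2, the canalicular exporter of conjugated bilirubin, had 293 and 273 CPM, and CYP27A1, of the alternative synthesis pathway, had 222 and 242 CPM. ABCB4, the phospholipid exporter, had 44.4 and 45.3 CPM. ABCB11, the bile salt export pump, and the sinusoidal importers SLCO1B1 and SLCO1B3 had 0 counts in both control libraries.

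The urea cycle and related carriers were detected for 7 of 9 genes (77.8%, against 61.2% of protein-coding genes). SLC25A13, the aspartate carrier, had 185 and 181 CPM, CPS1, which fixes ammonia, 49.9 and 46.7 CPM, ASL 41.6 and 48.1 CPM and ASS1 30.9 and 32.8 CPM. OTC had 0.472 and 0.675 CPM and ARG1, the liver arginase, 0.371 and 0.355 CPM. So OTC and ARG1 were below the detection threshold, while ARG2, the mitochondrial arginase, had 45.9 and 48.3 CPM.

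Amino acid breakdown genes were detected for 17 of 20. OAT, ornithine aminotransferase, had 124 and 119 CPM, and HGD and HPD, of tyrosine breakdown, had 60.8 ± 3.21 and 56.8 ± 6.54 CPM. TDO2, which opens tryptophan, and SDS, serine dehydratase, had 0 counts. Alcohol and aldehyde genes were detected for 8 of 11 (72.7%, against 61.2% of protein-coding genes). ALDH1A1 had 433 and 413 CPM and ADH4 had 108 and 102 CPM, while ADH1A, ADH1B and ADH1C, the class I alcohol dehydrogenases, had 0 to 0.142 CPM.

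Glucose and starvation genes were mixed. PYGL, the liver glycogen phosphorylase, had 188 and 183 CPM, PC, pyruvate carboxylase, had 38.1 and 40.8 CPM, and FBP1, of gluconeogenesis, had 0.303 and 0.320 CPM. Among 15 genes that starvation or loss of insulin is known to raise, 12 were detected (80%, against 61.2% of protein-coding genes). Their median was 3.50 CPM. IGFBP1, which binds insulin-like growth factors, had 281 and 277 CPM, TRIB1 had 164 and 155 CPM and CPT1A, the gate of fatty acid oxidation, had 40.4 and 40.3 CPM. G6PC1, the last step of glucose release, had 3.17 and 3.83 CPM, and PDK4 had 0 and 0.0710 CPM. These levels were not compared with fed cells, which were not analysed here.

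Sterol synthesis genes, which make cholesterol, were detected for 15 of 16. FDFT1, squalene synthase, had 370 and 362 CPM, CYP51A1, lanosterol demethylase, had 235 and 237 CPM, and SQLE, squalene epoxidase, had 170 and 158 CPM. INSIG1, which retains the sterol sensor in the endoplasmic reticulum, had 0 and 4 counts, and whether its reads were lost in counting was not tested. Proliferation genes were all detected, 21 of 21 with a median of 104 CPM in these cells, which were starved of serum before treatment. TOP2A had 600.4 and 573 CPM, PCNA, the sliding clamp, 346 and 343 CPM, CCNB1 167 and 162 CPM, AURKA 190 and 182 CPM and AURKB 13.9 and 13.8 CPM.

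Several fetal or widely expressed isozymes stood above their liver partners. Over 12 pairs of related genes that could be measured, of mixed kinds, the gene named first was higher per length than the second in 10, in the pooled control libraries. AFP was 1.62-fold ALB, at 1.61 and 1.63 in the libraries, and 1.42-fold on the length of the longest transcript. SLC2A1 (GLUT1), the glucose importer of most cells, was 70.4-fold SLC2A2 (GLUT2), the hepatic one, with a 95% counting interval of 65.6 to 75.6. PKM was 39.2-fold PKLR, the liver pyruvate kinase (35.4 to 43.5), and 107-fold on the longest transcript. The interval covers counting error only, and both genes of a pair were taken from the same library.

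Pairs with few counts of the second gene had wide intervals. IGF2 had 15738 and 15124 counts and IGF1 0 and 2, a ratio of 17523 (4851 to 144703). GYS1 against GYS2 gave 699 (125 to 27658) on 1 count of GYS2. CYP3A7 was 14.5-fold CYP3A4 (8.31 to 27.8), on 107 and 94 counts of CYP3A7 and 3 and 10 of CYP3A4, which made ratios of 33.5 and 8.84.

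PCK2, the mitochondrial carboxykinase, was 89.1-fold PCK1, the cytosolic one of gluconeogenesis. ARG2 was 126-fold ARG1 (82.3 to 204), on 11 and 10 counts of ARG1. BCAT1, a cytosolic aminotransferase, was 30.1-fold BCAT2, its mitochondrial form, and MAT2A was 2.04-fold MAT1A, the liver form. The second gene was higher for PYGB, the brain phosphorylase, at 0.802 of PYGL, and for ENO2, the neuronal enolase, at 0.0395 of ENO1, the widely expressed one. Length moved some ratios by more than 1.5-fold without turning them. On the longest transcript SLC2A1 was 128-fold SLC2A2, BCAT1 was 18.3-fold BCAT2 and PYGB was at 0.535 of PYGL, and on the MANE Select transcript PKM was 140.3-fold PKLR, BCAT1 was 12.7-fold BCAT2 and ENO2 was at 0.0251 of ENO1. The globin pair HBG1 and HBB had 0 counts and no ratio.

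**Figure D5:**
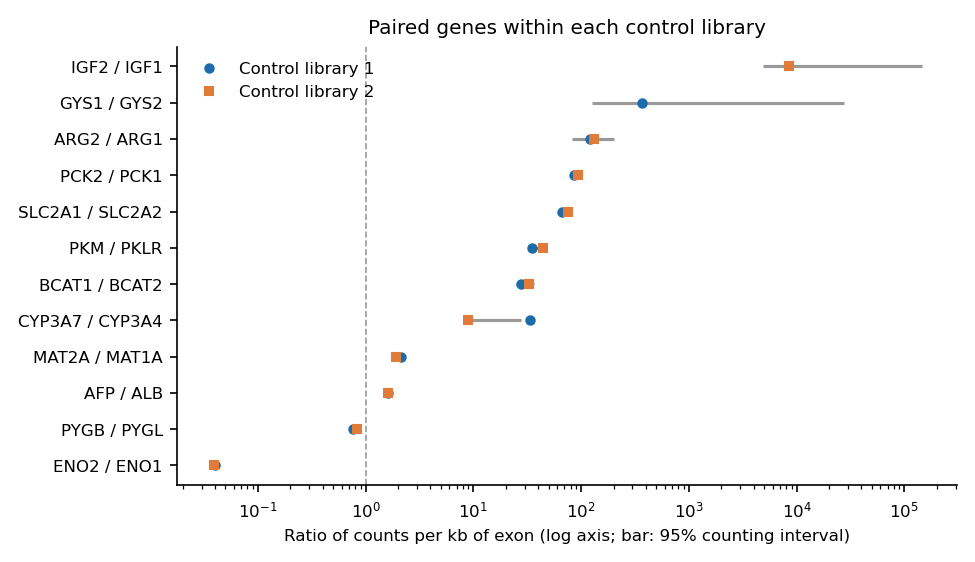
For 12 gene pairs the ratio of counts per kb of exon is given in each control library on a log axis, with the 95% counting interval of the pooled ratio as a bar and the dashed line at 1. A library with 0 counts of the second gene has no point. All pairs but PYGB and PYGL, at 0.802, and ENO2 and ENO1, at 0.0395, lie above 1.

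Markers of other cells were mostly at or near 0. Of 91 genes marking 9 other cell classes, 16 were detected (17.6%, against 49% of all genes and 61.2% of protein-coding genes). Together the 91 genes held 0.243% of all counts. Among them 36 had 0 counts in both control libraries, as had 29.5% of all genes and 19.8% of protein-coding genes. No lymphocyte gene (0 of 10) and no erythroid gene (0 of 10) was detected. The endothelial list had PECAM1 alone, at 3.77 and 3.48 CPM, while TEK and CLEC4M had 0 counts.

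A few markers were high and came without the rest of their list. LYZ, lysozyme of macrophages, had 1263 and 1241 CPM, and CD68 and CD14 had 9.54 ± 0.137 and 6.13 ± 0.470 CPM, but MARCO, VSIG4, CSF1R, TYROBP and C1QA had 0 counts. VIM, vimentin of mesenchymal cells, had 0 counts in both control libraries, as had DCN, LUM and THY1, and whether reads of VIM were lost in counting was not tested. ACTA2 had 29.1 and 29.6 CPM. VIL1, villin of brush borders, had 137 and 146 CPM, with INS, GCG, PRSS1 and MUC2 at 0 counts. ACTA1 had 28.2 and 22.8 CPM and MBP 12.7 and 11.1 CPM, with MYOD1, MYL2, SNAP25, OLIG2 and NEFL at 0 counts.

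Bile duct genes were split, with 5 of 10 detected (50%, against 61.2% of protein-coding genes). SPP1, osteopontin, had 279 and 281 CPM, SOX9 250 and 221 CPM, EPCAM 133 and 131 CPM and KRT19 65.0 and 70.6 CPM. KRT7, CFTR, AQP1 and MUC1 had 0 counts. SOX9, EPCAM and KRT19 also mark bipotent cells of the fetal liver. Cancer-testis genes, which many tumours switch on, were not detected for any of 17. PRAME had 3 and 20 counts and MAGEA6 10 and 5 counts.

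Housekeeping and secretory machinery gave the scale for these levels. Reference genes were all detected, 15 of 15, among them ACTB at 1618 and 1643 CPM, HPRT1 at 84.7 and 82.7 CPM and TBP at 23.0 and 25.2 CPM. In lists added after the counts had been seen, 79 of 79 cytosolic ribosomal protein genes held 4.25 ± 0.0960% of all counts, and 25 of 25 genes of folding and translocation in the endoplasmic reticulum held 2.34 ± 0.0135%. In the endoplasmic reticulum list P4HB had 2949 and 3196 CPM, HSP90B1 2952 and 2853 CPM, and HSPA5 (BiP) 2558 and 2455 CPM. Iron genes were detected for 12 of 15 (80%, against 61.2% of protein-coding genes). FTH1, the ferritin heavy chain, had 1907 ± 10.4 CPM, and HAMP, the iron hormone hepcidin, had 0.169 and 0.355 CPM.

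Many genes without counts in the control libraries had none in treated cells either. Outside the 3 lists added after the counts were seen, 69 list members had 0 counts in both control libraries. Of these, 40 had 0 counts in the other 6 as well. Among all genes 7739 (29.5%) had 0 counts in both control libraries, of which 3769 were protein-coding (19.8% of these), and 5952 had none in any of the 8.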

How the data were processed

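Libraries of poly(A) RNA from HepG2 cells kept the strand and were sequenced from one end for 50 bases. The authors deposited raw read counts per Entrez gene for each library on GRCh38.p10, and their notes name DESeq2. The aligner, the counter, their versions and any use of the strand are not given in the sources used here. The labels and the methods name different Illumina instruments.

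Counts of the control libraries were divided by the library total (CPM), and by the union of GENCODE 44 exons for TPM. A length was found for 25229 of 26235 genes, and genes without one held 0.730% and 0.750% of counts. RefSeq gave symbols to 99.4% of genes and the promoters (GRCh38.p14). No contrast was tested. R 4.3.3 with edgeR 4.0.16 gave TMM factors (1.03 and 1.04 for the controls), and Python 3.11.15 the rest. Steps were tested on simulated data. Intervals are exact, at 95%, for pooled counts.

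Members and lists were chosen with earlier results of these data known, and 3 lists (ribosomal proteins, endoplasmic reticulum, iron) after the counts were seen. Named genes are the 25 highest by TPM, ALB, AFP, APOB, TTR, the estrogen receptors, up to 8 highest and 4 lowest of each list by CPM, the isozyme pairs, and the 8 genes farthest apart between the controls at 10 CPM or more. Alternatives were other scalings, thresholds and lengths, and leaving out each library. Some genes that this rule names are not reported here.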

Additional observations from a re-analysis of the deposited data

Results flagged for a closer look

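Transcripts with 0 counts in both control libraries had counts in some libraries of treated cells. SLCO1B3, the sinusoidal importer, had 7 and 14 counts in the E2 libraries, above a limit of 3 counts per library that was used to flag genes. The floor of 3 counts holds for both control libraries pooled, so this limit is no bound on the counting error of a single library. It also had 16 and 2 counts in the PPT libraries and 2 and 0 in the DPN libraries. VIM had 4 and 5 counts in the DPN libraries, also above that limit, and whether its reads were lost in counting elsewhere was not tested. Outside the 3 lists added after the counts were seen, no other list member at 0 in the controls passed that limit in both libraries of a treatment. No difference between groups was tested.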

How the results depend on the processing

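No paired analysis was possible because no groups were compared and no result came from a test between groups. With the 10 most abundant genes left out of the library total, ALB had 12116, AFP 18294, APOB 13504 and TTR 280.3 CPM. With TMM over 8 libraries AFP had 15867 and APOB 11712.5 CPM, while ALB and TTR moved by less than 1 SD. Ranked per kb, the 10 most abundant genes held 6.12% of counts. The other 25 values of this kind stayed within 1 SD or 1.5-fold, among them 12814 to 16805 detected genes. Some of these 25 values come from leaving out a control library. For a level or share this returns the value of the other library, which with n = 2 lies within 1 SD of the mean by construction. Leaving out each control library gave 10597 to 11183 CPM for ALB, 16097 to 16789 for AFP, 11960.5 to 12316 for APOB and 239 to 265 for TTR. It gave 13056 to 13103 detected genes, 9.99% to 10.2% of counts in the top 10, 8.20% to 8.22% in plasma protein genes, and 10 pairs with the first gene higher under both. On the longest and on the MANE Select transcript, 9 of 12 pair ratios moved beyond their spread, the same pairs on both, and none turned. Of the 25 genes highest by TPM, 18 remained with MANE Select lengths. HNRNPA1P10, H3P6 and the MIR1244 loci had no such length and could not remain, so this number does not measure the effect of length alone. The count of detected members at 0.5 CPM stayed within 1.5-fold in 34 lists. MANE Select lengths were chosen after seeing the data. Depth limits statements on genes under 3 counts.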
